A study of Arabidopsis thaliana with 4 samples.

Results

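The genes described here are 7 genes of the mitochondrial genome: cox1, nad4L, ccb206, ccb203, ccb382, ccb452 and orfX. They are a list of names given at the outset, of genes for respiration, cytochrome maturation and protein export, and each was read by the brightest probe set (the short oligonucleotides that together read a transcript) that the platform annotation ties to that mitochondrial gene alone. All 7 listed genes were found, each with 1 probe set, among 13355 genes with a probe set of their own and 22746 probe sets tested. They are 7 of the 16 mitochondria-encoded genes that could be read in this way, of 33 protein-coding genes that RefSeq (TAIR10.1) lists for this genome. The other 9, of which 8 are also respiratory genes, are described after them. The rule contains no threshold on a measured value, although the list was drawn up with earlier results of these data known.

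RNA from whole seedlings of Arabidopsis thaliana, ecotype Columbia, was hybridised to 4 Affymetrix arrays at an age of 14 days, without any stress treatment. Of these, 2 arrays are labelled wild-type (WT) and 2 are labelled GST-overexpression, and 1 sentence of the series description calls the second a GRX line, while its title and the sample labels name the glutathione S-transferase. The paper describes the second group as line 26A, 1 homozygous transgenic line that carries OsGSTU4, which encodes a glutathione S-transferase of rice, under the CaMV 35S promoter, active in most tissues. The comparison asks which transcripts differ between these genotypes under normal growth, and the values are the authors' log2 signals, where a step of 1 is a doubling. Since RNA came from whole seedlings, fewer cells of a type and less RNA per cell cannot be told apart.

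Mitochondria make ATP by passing electrons from NADH to oxygen through protein complexes of their inner membrane. Plant mitochondria keep a small genome for some core subunits of these complexes, and the nucleus supplies the others. Proteins named c-type cytochromes carry electrons late in this chain and work only after haem has been attached to them. Plants use for this a set of Ccm proteins inherited from the bacterial ancestor of the organelle, and several of them are still encoded in the mitochondrion. Mature mitochondrial mRNAs of plants carry no stable poly(A) tail, and short tails mark them for decay, whereas the 3′-IVT kit used here primes from poly(A).

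Among the 7 genes, cox1 encodes the catalytic subunit of cytochrome c oxidase, the complex that reduces oxygen. The gene nad4L encodes a small membrane subunit of complex I, the entry point for electrons from NADH. The other names are old ones, and RefSeq gives ccb206 as ccmB, ccb203 as ccmFN2, ccb382 as ccmFN1 and ccb452 as ccmFC. CcmB is a membrane part of a transporter of the maturation pathway, and the CcmF proteins take part in joining haem to the apocytochrome. In Arabidopsis the N-terminal part of CcmF is split over ccmFN1 and ccmFN2. RefSeq gives orfX as mttB, with tatC as a synonym, a relative of the bacterial TatC protein that exports folded proteins across membranes.

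Differences are given as GST-overexpression minus WT, by the labels. The direction is opposite to that printed by the study at every probe set of its list of changed genes, so groups are called by their array labels throughout. Whether the labels or that direction is right was not settled here, and if the labels were exchanged the sign of every difference below would turn. A control probe set of the platform, AFFX-r2-At-U12639_at, read 11.7 and 12.0 on the WT arrays and 5.97 and 1.39 on the GST-overexpression arrays. This control differed by -8.13, a larger size than that of any probe set tested, where the range ran from -4.95 to 5.26. What it reads is not given in the sources used here, and no probe set was named for the rice gene, so the arrays hold no annotated check of their labels.

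Some features of the arrays stand beside every value below. Median log2 signals ran from 7.29 to 7.42 over the arrays. Replicates correlated at 0.901 for WT and 0.909 for GST-overexpression over the probe sets tested, and arrays of different genotypes at 0.9 to 0.909. The control probe set for 25S ribosomal RNA read 5.96 on GST-overexpression replicate 1 and 12.5 to 12.8 on the other arrays. Signal of the actin control at the 3′ end exceeded that at the 5′ end, which grows as RNA is shorter, by 3.48 and 3.53 on the WT arrays and 4.07 and 3.76 on the GST-overexpression arrays. The same measure overlapped for ubiquitin, at 1.27 and 1.76 in WT and 1.84 and 1.59 in GST-overexpression, and for GAPDH it was 1.01 and 0.962 in WT and 1.05 and 1.36 in GST-overexpression. Their part in the differences below was not tested. Of the leaf markers 2 of 11 had a probe set of their own, RCA and LHCB4.2, and both were bright, with lowest values of 14.4 and 10.8. Both markers had higher means on the GST-overexpression arrays, and those of LHCB4.2 stood above both WT arrays. None of 10 root markers and none of 8 seed markers could be read in this way. The 2 of 7 flower and pollen markers that could were dim, with means of 3.25 and 4.12. In the same order their log2 differences were -2.07 (standard error 1.26) and -2.52 (standard error 1.14). Their WT replicates lay 2.35 and 1.87 apart, and at the first marker the groups overlapped.

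In the arrays labelled GST-overexpression, cox1 and ccb206 were higher past the study's thresholds, which are a 2-fold difference or more and P no higher than 0.05, taken here as unadjusted P from limma. Across all probe sets 2.38% were higher and 2.34% were lower past these thresholds, and 2 of the 7 genes were higher and 0 lower. Of the 7 means 5 were higher and 2 were lower on the GST-overexpression arrays, beside 54% of all probe sets with a higher mean. The median log2 difference of the 7 genes was 0.64, and that of all probe sets was 0.04. Without WT replicate 2 the median of the 7 genes was 0.36. At 4 of the 7 genes both GST-overexpression arrays read above both WT arrays, which held for 21.1% of all probe sets, and at 1 gene both read below, which held for 16.3%. At an adjusted p under 0.05 in limma, 0% of all probe sets and none of the 7 genes were called, although 1317 probe sets had an unadjusted P under 0.05. With 2 arrays in each group no exact permutation p can fall below 0.33.

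**Figure D1:**
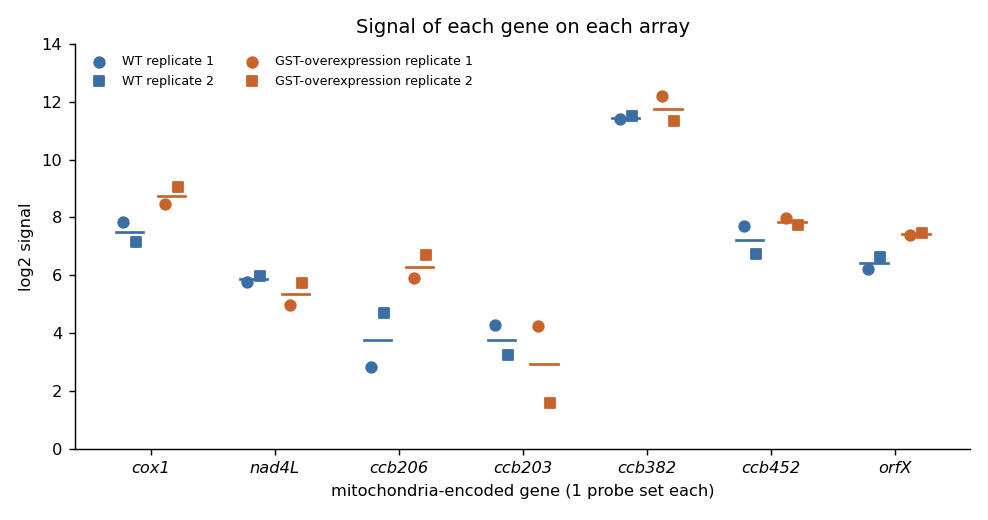
Signal of the 7 genes on each array, as log2 signal on the vertical axis, with circles for replicate 1, squares for replicate 2 and bars for the mean of each group. The arrays of the groups stand apart at cox1, ccb206, ccb452 and orfX, higher in GST-overexpression, and at nad4L, lower in it, and overlap at ccb203 and ccb382.

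The catalytic subunit gene cox1 read 7.85 and 7.15 in log2 signal on the WT arrays and 8.46 and 9.05 on the GST-overexpression arrays. Its lowest GST-overexpression array lay 0.61 above its highest WT array, a step below the gap of 0.70 between the WT replicates and close to that of 0.59 between the GST-overexpression replicates. The mean log2 signal was 8.75 ± 0.42 (SD, n = 2) against 7.50 ± 0.50 (SD, n = 2), a log2 difference of 1.26 with a standard error of 0.41, or a 2.39-fold higher signal (adjusted p = 0.857 in limma). This value sat close to the thresholds and fell short of them in 8 of 12 alternatives, with unadjusted P from limma at 0.0622 when arrays were centred on their medians and at 0.0599 after quantile normalization. Without WT replicate 2 the log2 difference of cox1 was 0.91, without GST-overexpression replicate 1 it was 1.55 and without its replicate 2 it was 0.96, and none of these passed. The direction was the same in all 12 alternatives. It could not turn under the filter on dim probe sets, the intensity trend, the methods' t-test or the replicate block. These keep the difference of 1.26.

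The complex I gene nad4L went the other way by its means, at 5.76 and 5.98 in log2 signal on the WT arrays against 4.98 and 5.74 on the GST-overexpression arrays. The groups did not overlap, but only by 0.02 on the log2 scale, while the GST-overexpression replicates lay 0.76 apart. The log2 difference of -0.51 (standard error 0.37) did not pass the thresholds, and ran from -0.89 to -0.13 when arrays were left out.

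Of the maturation genes, ccb206 had the largest difference of the 7 genes, though not without WT replicate 1, when cox1 had 1.61 and ccb206 1.58. It read 2.83 and 4.71 in log2 signal on the WT arrays and 5.89 and 6.69 on the GST-overexpression arrays, so the groups stood 1.18 apart. The WT arrays themselves lay 1.88 apart, and both were dim. The log2 difference was 2.52 with a standard error of 0.81, a 5.74-fold higher signal on the GST-overexpression arrays (adjusted p = 0.857 in limma). The size depended on the dim end of the scale, since it fell to 1.22 when 32 was added to every linear signal before taking log2, and still passed the thresholds there. Without WT replicate 1 it no longer passed, nor did it pass without GST-overexpression replicate 1, at 2.92, or without its replicate 2, at 2.12.

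The genes for the CcmF parts differed by less. The gene ccb452 read 7.70 and 6.73 in log2 signal on the WT arrays and 7.96 and 7.75 on the GST-overexpression arrays. These groups were separated by 0.04, against a gap of 0.97 between the WT arrays, and the log2 difference was 0.64 (standard error 0.44). The gene ccb382 was the brightest of the 7, at 11.4 and 11.5 on the WT arrays and 12.2 and 11.3 on the GST-overexpression arrays. Its log2 difference of 0.31 (standard error 0.40) came from GST-overexpression replicate 1, without which it was -0.12. The other part of the same protein, ccb203, was the dimmest of the 7 probe sets, at 4.27 and 3.24 on the WT arrays and 4.26 and 1.60 on the GST-overexpression arrays. Its replicates lay up to 2.67 apart, and its log2 difference of -0.83 (standard error 1.11) turned to 0.51 without GST-overexpression replicate 2. None of these 3 genes passed the thresholds, so of the 4 maturation genes 1 was higher past them.

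The export gene orfX had the steadiest values. It read 6.22 and 6.62 in log2 signal on the WT arrays and 7.39 and 7.45 on the GST-overexpression arrays. The step of 0.77 between the groups was larger than the gaps between replicates, 0.40 in WT and 0.05 in GST-overexpression, and of the 7 genes orfX was the only one at which this held. The log2 difference was 1.00 with a standard error of 0.27 (adjusted p = 0.77 in limma). As a fold this was 1.997, just under the threshold of 2, with an unadjusted P from limma of 0.026. Over 11 alternatives the log2 difference ran from 0.78 to 1.20, and it passed both thresholds in 1 of them, without WT replicate 2. The probe sets of orfX and ccb452 carry the suffix _s_at, which Affymetrix gives to probe sets that match several related transcripts.

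**Figure D2:**
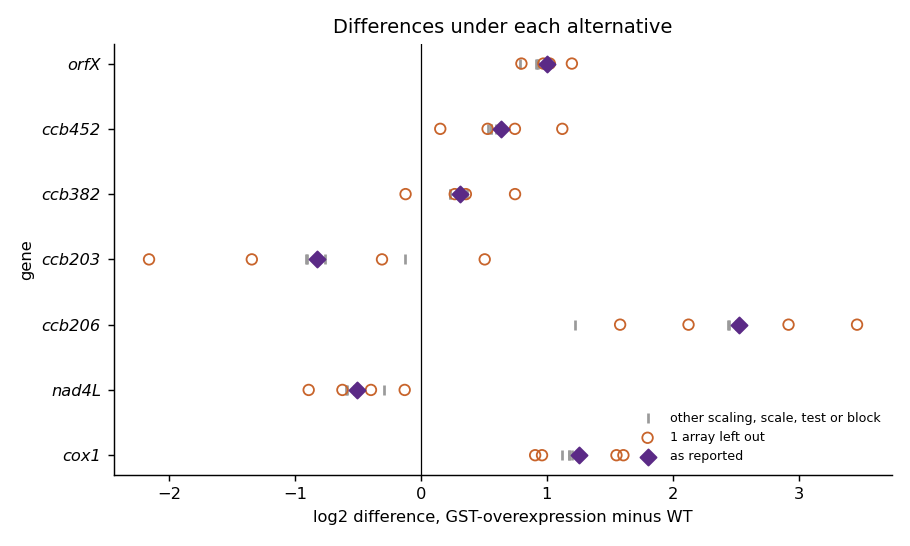
Log2 difference, GST-overexpression minus WT, of the 7 genes as reported (diamonds), with 1 array left out (open circles) and under the other alternatives (ticks). The open circles of ccb203 and ccb382 fall on both sides of 0, and those of orfX stay between 0.80 and 1.20.

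Over the whole array replicates lay farther apart at dim probe sets, an order that the 7 genes did not follow throughout. Between replicates the median gap over all probe sets was 1.68 in WT and 1.60 in GST-overexpression for probe sets with a mean log2 signal under 4, and 0.39 and 0.35 for those between 6 and 8. It was 0.27 and 0.23 between 8 and 10. The WT gap of ccb206 was above the median of 1.03 for its own signal range, 4 to 6, and the gaps of cox1 were above the medians of 0.27 and 0.23 for its range. The GST-overexpression gap of ccb382, the brightest gene, was 0.87, against a median of 0.18 for probe sets over 10, and that of orfX, at 0.05, was below the median for its range. Of the 7 genes, 3 lay above the median mean signal of 7.35, namely ccb382, cox1 and ccb452, and all 3 had higher means on the GST-overexpression arrays.

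**Figure D3:**
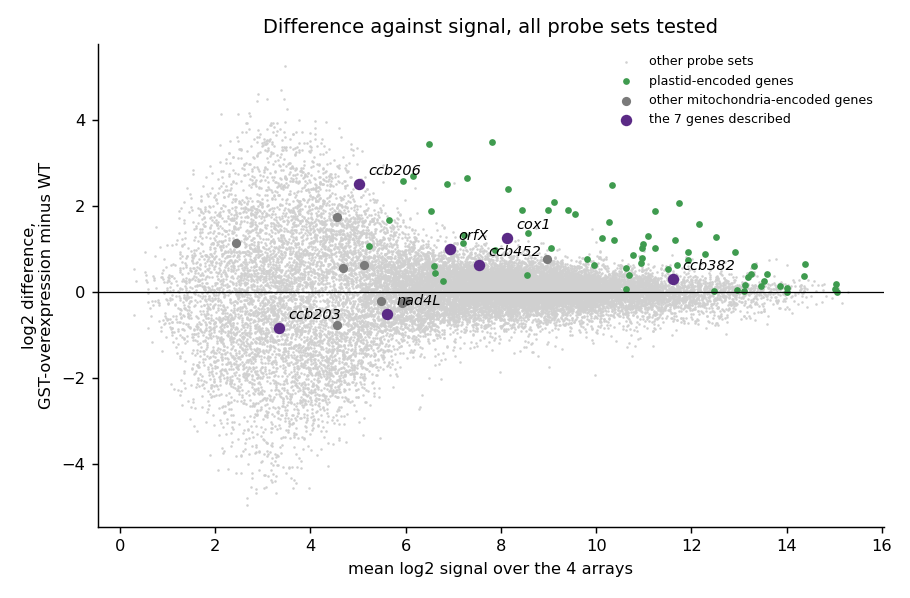
Log2 difference, GST-overexpression minus WT, against the mean log2 signal over the 4 arrays, for every probe set tested, with the 7 genes in purple. Differences of dim probe sets spread widely in both directions, and ccb206, ccb203 and nad4L lie in that range, while cox1, with a difference of 1.26, lies at a signal where most probe sets differed less.

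The other mitochondria-encoded genes with a probe set of their own numbered 9, of which 5 had higher and 4 lower means on the GST-overexpression arrays. None passed the thresholds, and their median log2 difference was 0.56, or 0.17 with the offset of 32 before log2 and -0.28 without WT replicate 2. Only cox2 and nad4, 2 of the 9, had both GST-overexpression arrays above both WT arrays, beside 21.1% of all probe sets. None had both below, beside 16.3% of all probe sets. The gene cox2, which encodes the subunit of cytochrome c oxidase that receives electrons from cytochrome c, read 5.06 and 2.32 on the WT arrays and 5.49 and 5.40 on the GST-overexpression arrays, a log2 difference of 1.76 (standard error 1.07) with WT replicate 2 as the low array. The complex I gene nad4 was the brightest of the 9, at 8.84 and 8.34 on the WT arrays and 8.88 and 9.82 on the GST-overexpression arrays, with a log2 difference of 0.77 (standard error 0.46).

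Among the 7 complex I genes other than nad4L, nad2 had 0.62 and nad5 0.56, and nad9, nad1, nad6 and nad7 had -0.24, -0.20, -0.20 and -0.78, in log2 difference. The maturase gene matR, which acts in splicing of mitochondrial introns, was the dimmest, at 0.55 and 3.18 on the WT arrays and 4.84 and 1.21 on the GST-overexpression arrays, with no order between the groups. Probe sets of 1 gene did not share 1 sign. The 7 that name nad1 alone ran from -0.68 (standard error 1.19) to 1.36 (standard error 1.98), with 4 higher and 3 lower. The 2 of nad5 were at -1.01 (standard error 1.24) and 0.56 (standard error 0.78). Each of these end values was smaller than its standard error. Whether probe sets of 1 gene differed by more than replicates did was not tested. The 7 genes described here have 1 probe set each, so no second reading of them could be set beside the first.

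**Figure D4:**
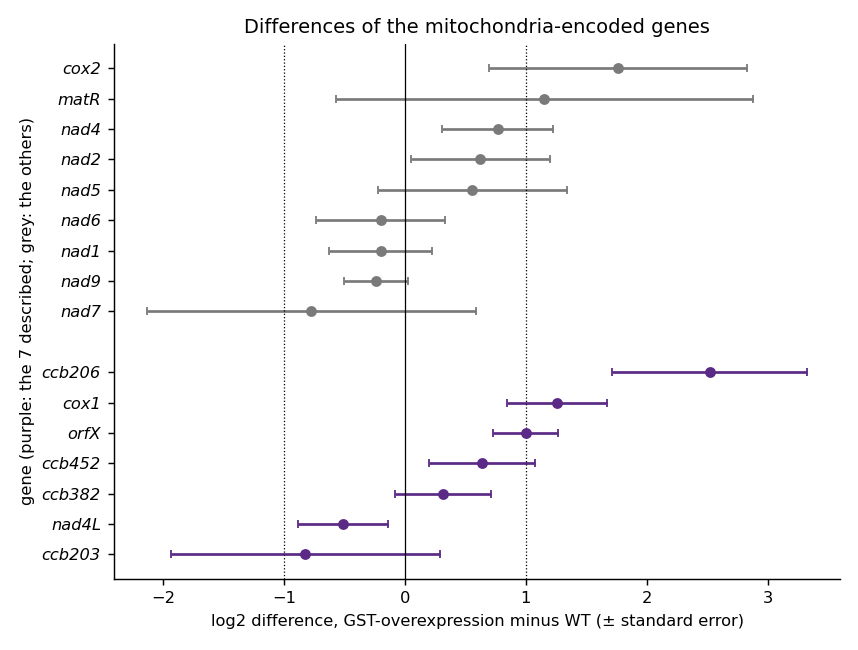
Log2 differences, GST-overexpression minus WT, with standard errors, of the 7 genes (purple) and the 9 other mitochondria-encoded genes (grey). Dotted lines mark a fold of 2 in each direction. Among the 9 others only cox2 and matR lie beyond it, each with a standard error above 1.

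A large part of the mitochondrial genome is also present in chromosome 2 of the Arabidopsis nucleus, and 12 further probe sets name a mitochondrial gene together with another gene, most often one of that insertion. Their log2 differences ran from -1.50 to 1.46 with a median of 0.57, and 10 were higher and 2 lower. When arrays were centred on their medians, 9 were higher. None passed the thresholds. The brightest of them, shared by the ribosomal protein genes rps3 and rpl16, read 9.71 and 8.65 on the WT arrays and 10.4 and 10.9 on the GST-overexpression arrays. Its log2 difference was 1.46 (standard error 0.51), with an unadjusted P from limma of 0.0539. The study's list of changed genes holds this probe set, in the opposite direction and under the name of a plastid gene. That list prints a mitochondrial ribosomal protein L16 gene at a different probe set, as lower in the transgenic line. Names and probe sets in the list therefore do not all match the annotation used here. The annotation does not say whether the probe sets of the 7 genes also match the chromosome 2 copies, and RNA from either place cannot be told apart here.

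By their order on the mitochondrial genome, the measured neighbours did not share 1 direction. Only genes with a probe set of their own were ordered, so unread genes may lie between those named as neighbours. Next to ccb206 lay cox2 at 1.76 on one side and nad9 at -0.24 on the other. Next to cox1 lay nad1 at -0.20 and nad2 at 0.62, and ccb203 and ccb382, neighbours of each other, were at -0.83 and 0.31. Next to orfX lay nad4 at 0.77 and matR at 1.15, and ccb452 lay between nad6 at -0.20 and nad4. Beyond nad4L lay ccb382 and, across the point where the circular map is opened, cox2.

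Nuclear partners of these genes were described by lists. Of 7 listed nuclear genes of cytochrome c and its maturation 5 could be read, 2 higher and 3 lower. Their median log2 difference was -0.15, and none passed the thresholds. The brightest were CYTC-1, a cytochrome c gene, at -0.15 (standard error 0.23), AT3G27240 at -0.22 and AT5G40810 at 0.14. CCMH, which encodes a nuclear-encoded member of the same maturation pathway as the ccb genes, had 0.09 (standard error 0.25). Of 15 nuclear genes of cytochrome c oxidase and its assembly 8 could be read, 5 higher and 3 lower. Their median was 0.01, and 3 of the 8 were higher when arrays were centred on their medians. Its brightest members were AT4G37830 at -0.10, AT2G47380 at 0.01 and AT3G62400, which had a log2 difference of 0.00.

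Of 15 nuclear genes of complex I 6 could be read. All 6 had lower means on the GST-overexpression arrays, also in the 3 scaling alternatives. Centring on array medians or on nuclear genes moved all differences down, so of these only quantile normalization could have turned them. The log2 differences of the 6 genes were small, from -0.24 to -0.13, and none passed the thresholds. The median was -0.18, beside a median size of 0.17 for all probe sets with a mean log2 signal over 10, where these 6 lie. At 3 of them both GST-overexpression arrays lay below both WT arrays, which held for 16.3% of all probe sets and 20.6% of those over 10. The brightest were AT3G08610 at -0.15, AT5G11770 at -0.13 and AT4G02580 at -0.13. Of 13 genes of alternative respiration, a route that bypasses parts of the chain, 5 could be read, 3 higher and 2 lower. Their median was 0.28, and the brightest were NDC1 at -0.09, NDB2 at -0.35 and NDB1 at 0.48, all genes of alternative NAD(P)H dehydrogenases. None passed the thresholds.

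Of 13 nuclear genes listed for synthesis, processing and decay of mitochondrial RNA 5 could be read, 5 of them higher by their means, or 4 after centring on array medians. Their median log2 difference was 0.78. AT5G46920 had 0.78 (standard error 0.26), OTP43, which acts in processing of organelle transcripts, 0.05 (standard error 0.43), and AT3G48810 0.38 (standard error 0.89). AT5G14580, named after its values were seen, read 3.61 and 5.42 on the WT arrays and 6.62 and 6.48 on the GST-overexpression arrays. Its log2 difference was 2.04 (standard error 0.73). The remaining gene, AT5G15700, named to complete the list, had 1.56 (standard error 1.16). There the groups overlapped, and the WT replicates lay 2.97 apart. None of these passed the thresholds.

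Set beside the plastid, which also keeps its own genome, the mitochondrial genes were less uniform, although the difference between these groups of genes was not tested. The plastid genes as a set were also brighter, with median log2 signals from 10.3 to 11.5 over the arrays. Those of the 9 other mitochondrial genes ran from 4.93 to 5.56, and replicates lay farther apart at dim probe sets. The part of signal level in this contrast was not tested. All 69 plastid-encoded genes with a probe set of their own had higher means on the GST-overexpression arrays, or 62 after centring on array medians. Their median log2 difference was 0.93, and 20 were higher past the thresholds, beside 2.38% of all probe sets. The plastid genes most like nad4L in function, 10 ndh genes of the NADH dehydrogenase-like complex, had a median of 0.94. The 6 pet genes of the cytochrome b6f complex, which holds a c-type cytochrome, had 1.74. Median log2 signals of the pet genes were 6.31 and 6.59 on the WT arrays and 8.14 and 9.11 on the GST-overexpression arrays. Over the 7 mitochondrial genes the median log2 signal was 6.22 and 6.62 on the WT arrays and 7.39 and 7.45 on the GST-overexpression arrays, values that on each array are those of orfX.

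The median profile of the 7 genes, taken as each gene's log2 signals on the 4 arrays minus their mean, was compared with that of 13348 other genes by Euclidean distance. The closest were AT2G25800 at a distance of 0.04, SWEETIE (AT1G67140) at 0.04 and AT3G43690, which RefSeq lists as a pseudogene, at 0.07. Their log2 differences were 0.56, 0.57 and 0.61. With 4 arrays many profiles are alike, and the measure is a description only.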

How the data were processed

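The authors deposited 1 log2 signal per probe set and array, and these log2 values were used as deposited. The submitters' processing notes name RMA without a version. The values have a floor at 0 and trimmed means near 499.8 on the linear scale of each array, as MAS5-type scaling leaves them, and not the equal distributions of RMA. The 64 control probe sets were left out of the tests, and 22746 probe sets were fitted with limma 3.58.1 in R 4.3.3, with no filter on dim ones and no replicate block, and P adjusted by Benjamini and Hochberg. The annotation gives 13513 probe sets 1 gene, 503 several and 8730 none. Of the first, 13436 were tied to RefSeq by Entrez ID, 48 by locus, 23 to the mitochondrial genome by symbol or synonym, and 6 were not tied. Mitochondrial genes are those tied by symbol, brightest probe set per gene. Genes and lists were chosen with earlier results of these data known. Named were the 7 genes, other mitochondrial genes, the 3 brightest members of each nuclear list with any past the thresholds, neighbours and the 3 closest profiles; exceptions are stated or, for CCMH, chosen for function. The labels count 2 biological replicates per genotype, fewer than the paper's methods. The number of arrays limits the precision. The fit was tested on simulated data. Figures were drawn with matplotlib 3.10.9. No sequence or genome coordinate is shown, and real-time PCR was not used here. Alternatives, chosen in the same way, were 3 scalings, a filter on dim probe sets, an offset before log2, an intensity trend, the methods' t-test, a replicate block, other thresholds and leaving out each array.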

Additional observations from a re-analysis of the deposited data

Results flagged for a closer look

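One result outside the main measurement stood out. The control probe set AFFX-r2-At-U12639_at, which belongs to no comparison above, had a log2 difference of -8.13, with 11.7 and 12.0 on the WT arrays and 5.97 and 1.39 on the GST-overexpression arrays. It had the largest difference of the 64 control probe sets, and the next, 25S ribosomal RNA, had -3.18, which came from GST-overexpression replicate 1 alone.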

How the results depend on the processing

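Over 80 refits of the 7 genes, 65 left the gene on its side of the thresholds with its direction, 12 lost a call, 1 gained one and 2 turned the direction. The 12 lost calls were 8 of cox1 and 4 of ccb206. Only cox1 and ccb206 had a call to lose. With the methods' t-test none of the 7 genes passed, and with the replicate block cox1 did not, while ccb206 did. Both fits, like the filter on dim probe sets and the intensity trend, keep each log2 difference, so no direction could turn under them. The turned values were 0.51 for ccb203 without GST-overexpression replicate 2 and -0.12 for ccb382 without its replicate 1, in ranges from -2.16 to 0.51 and from -0.12 to 0.75 when an array was left out. The median of the 7 genes, 0.64, ran from 0.36, without WT replicate 2, to 0.80 when an array was left out. Higher and lower calls over all probe sets, 542 and 532, were 49 and 47 above the median mean, 160 and 159 with the offset, 297 and 286 with the intensity trend and 239 and 240 with the methods' t-test. They ran from 497 to 1161 and from 654 to 849 when an array was left out, with most higher calls, 1161 and 859, without WT replicate 2 or 1 and most lower calls, 849 and 810, without WT replicate 1 or GST-overexpression replicate 1. With the intensity trend 2 probe sets passed an adjusted p of 0.05, neither of them a gene described here. The replicate number pairs no samples by the labels, and replicate deviations of the groups correlated at 0.05. The replicate block gave 649 higher and 652 lower calls. A fold of 1.5, or P alone, gave 679 and 638, since no probe set at P of 0.05 or below had a fold under 1.5. No gene of the 7 has a further probe set of its own, so that alternative gave no value. The dimmest of the 7 probe sets were those of ccb203, ccb206 and nad4L.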
